A study of Mus musculus with 12 samples.

Results

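The 10 genes described here belong to glycolysis and to the response to low oxygen: Slc2a1, Hk2, Pfkfb3, Ldha, Pgk1, Pdk1, Bnip3, Ndrg1, Adm and Egln3. They were chosen by name. Every non-control probe whose annotated gene name is one of the 10 was taken, which gave 16 probes, and all 16 passed the filter on dim probes. The 10 genes are part of 20370 genes and features tested.

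The study hybridised RNA of sorted tumour macrophages to 12 Agilent mouse arrays in a single colour, 6 labelled YFP+ and 6 labelled YFP-. All 12 samples came from female C57/B6 mice aged 8 to 10 weeks that carried implanted tumours, with pancreas tumour as the tissue, and the cells were sorted by flow cytometry straight into lysis buffer. The labels give the genotype as not provided. The design text names wild-type, KPC and FLT3-CRE/LSL-YFP mice, where LSL-YFP is a yellow fluorescent reporter behind a stop cassette that Cre recombinase removes, so that in such mice YFP marks cells with a history of Cre driven from Flt3, a receptor of blood progenitors. That the reporter has this meaning in these 12 samples rests on the design text alone. Sample titles carry 6 identifiers ending in T, each shared by 1 YFP+ and 1 YFP- sample; they are renumbered 1 to 6 here, in their own order, and called tumour numbers. The labels do not say what the identifier stands for, whether 1 tumour, 1 animal or a pool. The p-values are therefore measured against the spread among these 12 samples alone, and part of that spread may be technical.

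Glycolysis splits glucose to pyruvate in the cytosol, and cells short of oxygen turn that pyruvate into lactate to keep the pathway running. Hypoxia-inducible factors (HIF) are transcription factors whose alpha subunits are hydroxylated and destroyed while oxygen is plentiful. When oxygen falls they accumulate, pair with Arnt and switch on genes for glucose uptake, glycolysis, mitochondrial restraint and blood vessel growth. Macrophages are known to raise glycolysis on inflammatory activation, and pancreatic tumours are known for poorly oxygenated tissue.

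HIF binds the core letters ACGTG or GCGTG. The 250 bases before the annotated start of 5 members are shown because on the arrays the first 3 of these genes passed a test of tumour number at an unadjusted p under 0.05 and the last 2 did not. Sequences are from RefSeq (GRCm38.p6), in the direction of the gene, and capitals mark every ACGTG or GCGTG on either strand, which on the reverse strand reads CACGT or CACGC. A run of CACGTG, the E-box bound by Myc and other factors, is matched on both strands.
Egln3, chr12:54203875-54204124, minus strand: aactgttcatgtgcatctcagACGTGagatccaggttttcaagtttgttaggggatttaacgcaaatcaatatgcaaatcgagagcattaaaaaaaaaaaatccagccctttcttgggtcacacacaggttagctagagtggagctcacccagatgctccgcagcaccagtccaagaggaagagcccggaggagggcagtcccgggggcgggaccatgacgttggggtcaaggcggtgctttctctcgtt
Pdk1, chr2:71872974-71873223, plus strand: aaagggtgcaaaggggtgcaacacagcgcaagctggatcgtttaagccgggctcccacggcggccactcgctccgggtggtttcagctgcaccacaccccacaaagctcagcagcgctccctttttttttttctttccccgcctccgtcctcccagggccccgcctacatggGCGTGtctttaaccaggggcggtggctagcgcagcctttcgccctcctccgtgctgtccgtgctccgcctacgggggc
Bnip3, chr7:138909507-138909756, minus strand: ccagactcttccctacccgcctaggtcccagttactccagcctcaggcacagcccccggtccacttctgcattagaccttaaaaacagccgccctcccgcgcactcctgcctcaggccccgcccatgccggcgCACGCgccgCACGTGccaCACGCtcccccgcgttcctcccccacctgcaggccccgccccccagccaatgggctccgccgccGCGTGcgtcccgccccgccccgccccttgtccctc
Ldha, chr7:46845554-46845803, plus strand: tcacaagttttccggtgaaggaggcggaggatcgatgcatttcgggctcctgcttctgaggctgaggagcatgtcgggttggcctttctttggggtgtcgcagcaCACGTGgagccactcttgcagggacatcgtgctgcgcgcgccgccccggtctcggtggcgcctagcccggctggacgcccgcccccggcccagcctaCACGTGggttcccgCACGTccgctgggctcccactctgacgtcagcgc
Pgk1, chrX:106186850-106187099, plus strand: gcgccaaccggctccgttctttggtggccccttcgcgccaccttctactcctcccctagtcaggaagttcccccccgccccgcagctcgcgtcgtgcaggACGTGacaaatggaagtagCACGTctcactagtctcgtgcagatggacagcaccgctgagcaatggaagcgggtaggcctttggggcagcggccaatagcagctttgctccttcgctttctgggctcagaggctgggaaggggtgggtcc
Egln3 held 1 such run, at position -229, with -1 the base just before the start. Pdk1 also held 1, at -78, and its other start, at chr2:71874654-71874903, held 0. Bnip3 held 4, among them a CACGTG at -108, and Pgk1 held 2. Ldha held 3, of which those at -145 and -48 are CACGTG. The other start of Ldha, at chr7:46846832-46847081, held 1, at -59. The promoter table holds 12 starts of 9 members; Ndrg1 has no entry in it. At least 1 match stood in 11 of the 12 starts, against 12679 of all 32851 starts in the table (38.6%). Each of these spellings contains the step CG, and the member starts held a median of 15.5 CG steps against 6 over all starts. Among the 8356 starts with at least 15.5 CG steps, 68.7% held a match. Of the 12 member starts, 6 were among them, and all 6 held a match. A match describes the letters only and was not set against binding.

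On the arrays, none of the 10 members passed the test between YFP+ and YFP- macrophages. Their differences lay between -0.81 for Adm and 0.19 for Slc2a1 on the log2 scale. In all 10 the ranges of the 6 YFP+ and 6 YFP- arrays overlapped, a count not set beside its share over all genes. By tumour number, Egln3, Pdk1, Pfkfb3 and Bnip3 read highest at number 6 in both groups, and Ndrg1 and Hk2 at number 3 in both groups. Hk2 in YFP+ was nearly equal at numbers 2, 3 and 4, and no gene passed a test of tumour number after adjustment. Values are the log2 processed signal minus the 75th percentile of its array, so 0 is the level of the 75th percentile, and they are compared within a probe and not between genes. RNA of a whole sorted sample was measured, so that fewer cells making a transcript and less transcript per cell cannot be told apart.

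The limma test (adjusted p under 0.05, by the method of Benjamini and Hochberg over all 20370 genes and features) called 0 of the 10 members, where 1.75% of all genes tested were called. At an unadjusted p under 0.05, 0 of 10 members passed, against 11.2% of all genes tested. The smallest adjusted p among members was 0.62, that of Adm. Of the differences, 3 were above 0 and 7 below, with a median of -0.07 beside -0.03 over all genes tested. Those signs depend on the scaling. With each array centred on its median instead, the median of all genes moved to 0.18 and the differences of Pfkfb3, Pdk1, Bnip3 and Egln3 were above 0. That centring shifts every gene alike, and relative to the median of all genes they were 0.014, -0.031, -0.047 and -0.065. With quantile normalization those of Pfkfb3, Ldha and Bnip3 were above 0. Standard errors ran from 0.18 to 0.51, and the 95% intervals of the members together reached from -1.92 to 0.78.

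**Figure D1:**
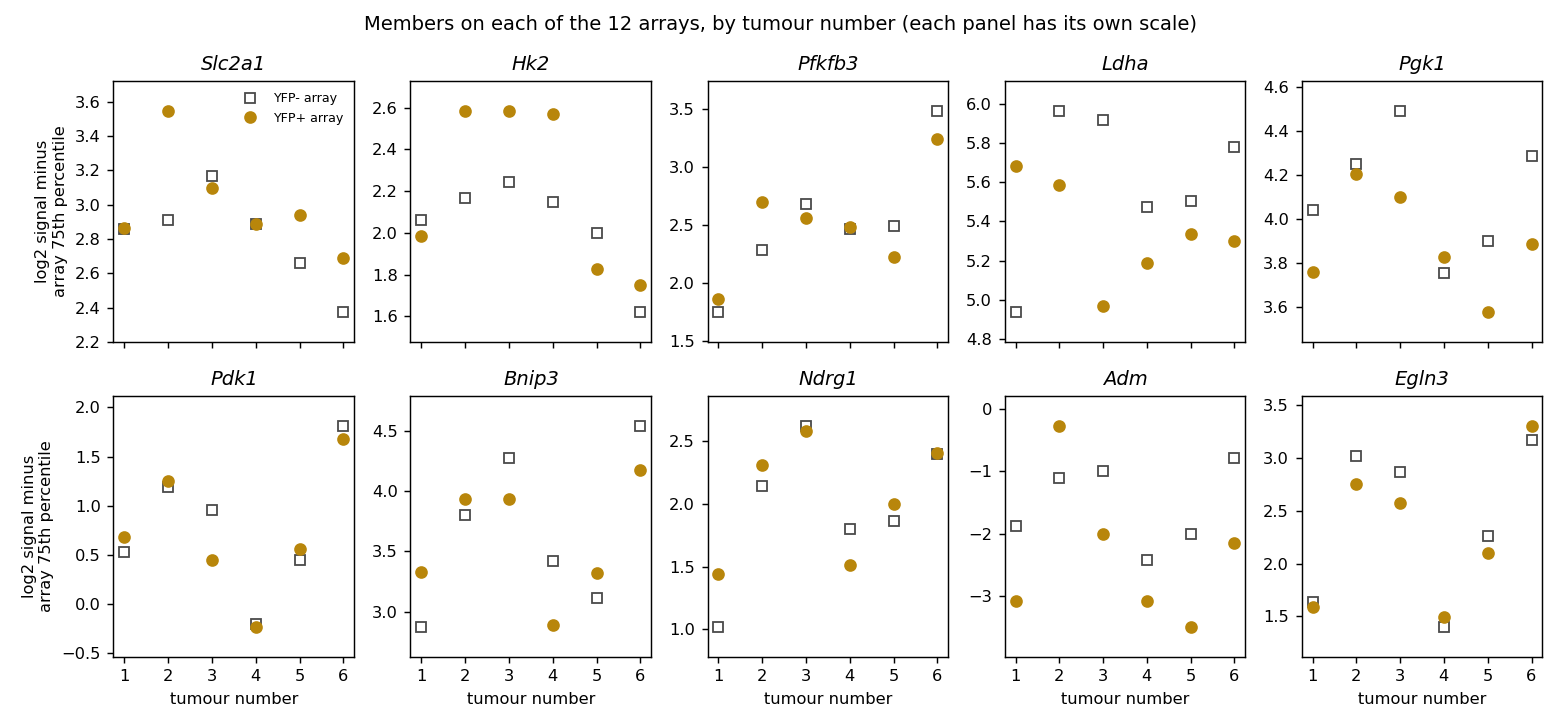
Level of each member (log2 processed signal minus the 75th percentile of the array, vertical axes, a scale of its own in each panel) on the 12 arrays, by tumour number (horizontal axes), with filled circles for YFP+ and open squares for YFP- arrays. Circles and squares of Egln3 and Pdk1 lie close together at most tumour numbers and rise to their highest values at number 6, while the 2 symbols of Ldha lie as far apart as 0.95 at number 3.

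Slc2a1 encodes Glut1, the glucose transporter of most cells, and its probe lies at chr4:118809864-118809923 on the plus strand of mm9, the mouse build of the array annotation. The 6 YFP+ arrays read 2.86, 3.54, 3.10, 2.89, 2.94 and 2.69 in the order of tumour numbers 1 to 6, and the 6 YFP- arrays 2.86, 2.91, 3.17, 2.89, 2.66 and 2.37. The YFP+ array of number 2 is the highest of the 12, the groups overlap, and at numbers 1 and 4 the 2 arrays of a number are nearly equal. The difference was 0.19 (SE 0.20, adjusted p = 0.80, limma), with a 95% interval of -0.23 to 0.62. Slc2a1 and Hk2 were lowest at number 6 in both groups.

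Hk2 encodes hexokinase 2, which phosphorylates glucose and traps it in the cell; its probe lies at chr6:82675056-82675115, minus strand. YFP+ arrays read 1.98, 2.58, 2.58, 2.57, 1.83 and 1.75 at numbers 1 to 6, and YFP- arrays 2.06, 2.17, 2.25, 2.15, 2.0 and 1.62. The YFP+ arrays of numbers 2, 3 and 4 stood above every YFP- array, and the other 3 lay inside the YFP- range. The difference was 0.17 (SE 0.21, adjusted p = 0.85, limma), with a 95% interval of -0.29 to 0.64.

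Pfkfb3 makes fructose 2,6-bisphosphate, the activator of phosphofructokinase, and so sets the pace of glycolysis. Its brighter probe (chr2:11393453-11393512, minus strand) read between 1.86 and 3.24 in YFP+ (median 2.52) and between 1.75 and 3.48 in YFP- (median 2.48), the lowest at number 1 and the highest at number 6 in both groups. The difference was -0.01 (SE 0.30, adjusted p = 0.997, limma), and its interval of -0.66 to 0.64 corresponds to a YFP+ level of 0.63 to 1.56 times that of YFP-. The dimmer probe, with no position in the array annotation, gave -0.23 (SE 0.53), and both of its groups were again highest at number 6.

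Pgk1, phosphoglycerate kinase, makes ATP in the payoff phase of glycolysis (probe chrX:103398640-103398699, plus strand). It ranged from 3.58 to 4.21 in YFP+ (median 3.86) and from 3.76 to 4.49 in YFP- (median 4.15). The difference was -0.23 (SE 0.18, adjusted p = 0.74, limma; 95% interval -0.63 to 0.17), with the YFP+ array the lower at 5 of 6 tumour numbers.

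Ldha is the lactate dehydrogenase subunit that favours making lactate from pyruvate. Its brightest probe (chr7:54110937-54110996, plus strand) read 5.68, 5.58, 4.97, 5.19, 5.34 and 5.30 on the YFP+ arrays of numbers 1 to 6 and 4.94, 5.96, 5.92, 5.47, 5.50 and 5.78 on the YFP- arrays. The YFP+ array was the lower at every number but 1, where it was 0.74 higher, and the groups overlap. The difference was -0.25 (SE 0.21, adjusted p = 0.75, limma), with an interval of -0.72 to 0.21. With the brightness of the array as a covariate it was 0.48 (adjusted p = 0.505, limma), on the other side of 0. YFP+ arrays were brighter, with 75th percentiles of 3261 to 3930 against 2121 to 3329 in YFP- arrays. Brightness thus largely follows group, and this fit separates the 2 poorly.
Ldha was also read by 2 probes nearer its start, shown because they gave a difference near 0 where the brightest probe gave -0.25. Both are from the array design, 60 bases long, on the plus strand of mm9, and each reads through without a stop codon in at least 1 frame. The brightest probe does so too, and a frame open over 60 bases does not place a probe in coding sequence.
Ldha probe at chr7:54103010-54103069: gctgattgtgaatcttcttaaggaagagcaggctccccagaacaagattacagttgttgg
Ldha probe at chr7:54107294-54107353: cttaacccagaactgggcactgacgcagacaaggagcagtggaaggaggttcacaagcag
The first gave -0.01 (SE 0.20; YFP+ 2.50 to 3.30, YFP- 2.50 to 3.16), and the second also -0.01 (SE 0.24; YFP+ 2.77 to 3.68, YFP- 2.89 to 3.91). The 95% intervals of all 3 probes overlap, and the difference between probes was not tested.

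Pdk1, pyruvate dehydrogenase kinase 1, keeps pyruvate out of the TCA cycle by switching off pyruvate dehydrogenase, and is a HIF target (probe chr2:71739688-71739747, plus strand). YFP+ arrays read 0.69, 1.25, 0.45, -0.23, 0.55 and 1.67 at numbers 1 to 6, and YFP- arrays 0.53, 1.19, 0.95, -0.20, 0.45 and 1.81. Both groups are lowest at number 4, highest at number 6 and next highest at number 2. The groups lie on top of each other, with a difference of -0.06 (SE 0.38, adjusted p = 0.98, limma) and an interval of -0.88 to 0.76.

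Bnip3 marks mitochondria for removal and is induced by HIF. Its brightest probe (chr7:146082760-146082819, minus strand) read 3.33, 3.94, 3.93, 2.89, 3.32 and 4.17 in YFP+ and 2.88, 3.80, 4.27, 3.42, 3.11 and 4.54 in YFP-, in the order of numbers 1 to 6. Numbers 2, 3 and 6 were the 3 highest in both groups. The difference was -0.07 (SE 0.33, adjusted p = 0.97, limma), with an interval of -0.79 to 0.64. A neighbouring probe (chr7:146082640-146082699) gave -0.17 (SE 0.32) and had the same 3 numbers on top in both groups. The third probe (chr7:146082536-146082595) was well above background on only 4 YFP+ and 5 YFP- arrays and gave -0.50 (SE 0.90).

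Ndrg1, a growth-arrest protein induced by hypoxia and cell stress, was read by 1 probe (chr15:66761057-66761116, minus strand). YFP+ arrays read 1.44, 2.31, 2.58, 1.51, 2.0 and 2.40 at numbers 1 to 6, and YFP- arrays 1.02, 2.14, 2.62, 1.80, 1.87 and 2.40. Number 1 is lowest, number 4 next lowest and number 3 highest in both groups. The difference was 0.06 (SE 0.30, adjusted p = 0.97, limma), with an interval of -0.59 to 0.72.

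Adm encodes adrenomedullin, a secreted peptide that widens blood vessels (probe chr7:117773088-117773147, plus strand). YFP+ arrays read -3.07, -0.27, -2.01, -3.08, -3.49 and -2.15 at numbers 1 to 6, and YFP- arrays -1.88, -1.10, -1.0, -2.42, -2.0 and -0.80. The YFP+ array was the lower at 5 of 6 numbers, but that of number 2 was the highest of all 12, so the groups overlap. Adm had the largest difference of the 10 members, -0.81 (1.76-fold lower in YFP+, SE 0.51, adjusted p = 0.62, limma), with an interval of -1.92 to 0.30. Without the YFP+ array of number 2 the difference was -1.23 (adjusted p = 0.206), the smallest adjusted p of any member under any of 35 alternatives. Within the 3 slides, each with 2 arrays of either group, it was -0.31, -1.73 and -0.39.

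Egln3 is one of the prolyl hydroxylases that mark HIF alpha subunits for destruction, and is itself induced by HIF. Its brighter probe (chr12:55281252-55281311, minus strand) read 1.59, 2.75, 2.58, 1.49, 2.10 and 3.31 on the YFP+ arrays of numbers 1 to 6 and 1.64, 3.02, 2.87, 1.40, 2.26 and 3.17 on the YFP- arrays. The 6 numbers fall in the same order in both groups, from number 4, the lowest, through 1, 5, 3 and 2 to number 6. The difference between the groups was -0.09 (SE 0.40, adjusted p = 0.96, limma), with an interval of -0.96 to 0.78. The dimmer probe (chr12:55280953-55281012) ranged from -1.28 to 1.01 in YFP+ and from -0.30 to 0.66 in YFP-, and its difference was -0.07 (SE 0.37).

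**Figure D2:**
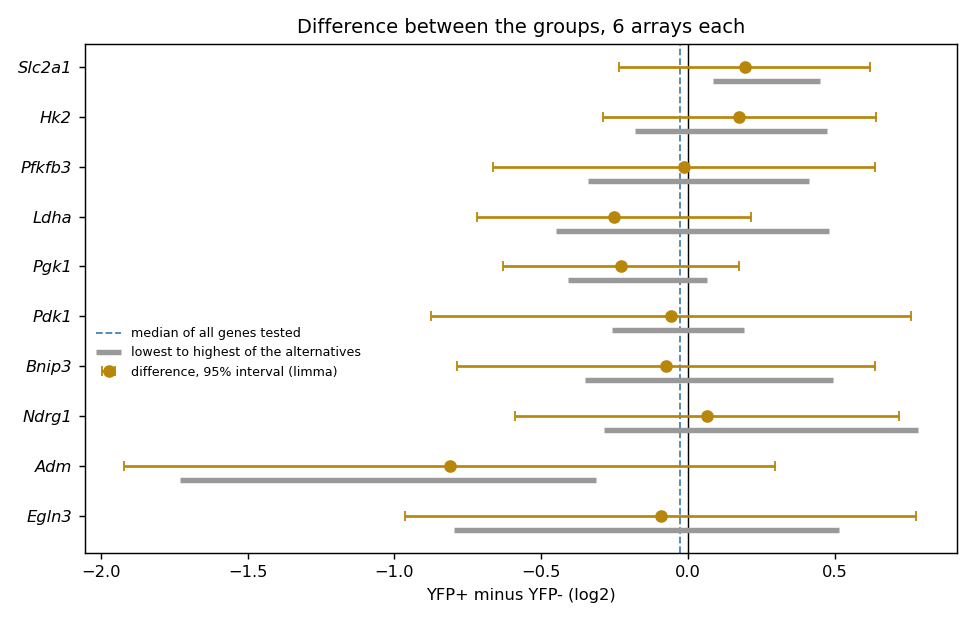
Difference of each member between YFP+ and YFP- macrophages (log2, horizontal axis; 6 arrays a group), with points for the difference, bars for limma's 95% interval and grey strips for the lowest to the highest value over the 35 alternatives. All 10 intervals cross 0, and Adm lies farthest from it, at -0.81.

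Values of the members were set out by tumour number. For Egln3 the means of the 6 numbers ran over 1.79 log2 units, from number 4 to number 6, while the gap between its 2 arrays of a number was at most 0.29. For Pdk1 the span was 1.96 and the largest gap 0.50, at number 3. For Pfkfb3 the span was 1.56 and the largest gap 0.42. Spans, gaps and tests by tumour number are those of the brightest probe of a gene. The dimmer probes of these genes lay farther apart at number 1. That of Egln3 read -1.28 in YFP+ and -0.30 in YFP- there, and that of Pfkfb3 -1.75 and -0.18. The dimmer Egln3 probe was lowest at number 1, not 4, in both groups, and highest at number 6 in both.
The span exceeded the largest gap in 9 of 10 members, the exception being Ldha, with a span of 0.46 and a gap of 0.95. This count was not set beside its share over all genes. Spread over tumour numbers was tested across all genes with a limma F test of tumour number beside group, chosen after these values were seen. None of the 20370 genes passed after adjustment (0%, smallest adjusted p 0.228). At an unadjusted p under 0.05, 6 of 10 members passed, against 7.31% of all genes tested. Their p-values in this F test were 0.0022 for Egln3, 0.0047 for Pdk1, 0.021 for Ndrg1, 0.025 for Pfkfb3, 0.033 for Bnip3 and 0.038 for Adm, with adjusted p-values of 0.50 to 0.66. Slc2a1, Hk2, Ldha and Pgk1 did not pass, with p-values of 0.22 to 0.89. Members read on the same 12 arrays are not independent of each other.
Tumour numbers and slides overlap in part: the 2 arrays of numbers 4, 5 and 6 shared a slide, and those of numbers 1, 2 and 3 did not. With slide as a term, 1 of 10 members, Egln3, passed at the unadjusted level, against 7.38% of all genes; its p in that F test was 0.035. Slide itself, tested beside tumour number, passed at that level in 1 member, Ldha, against 20.1% of all genes, with a p of 0.046 in that F test. Leaving out both arrays of each tumour number in turn left 4 to 6 of 10 members at that level, while the share over all genes ran from 4.95% (without number 6, 4 members) to 13.3% (without number 1, 4 members).

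**Figure D3:**
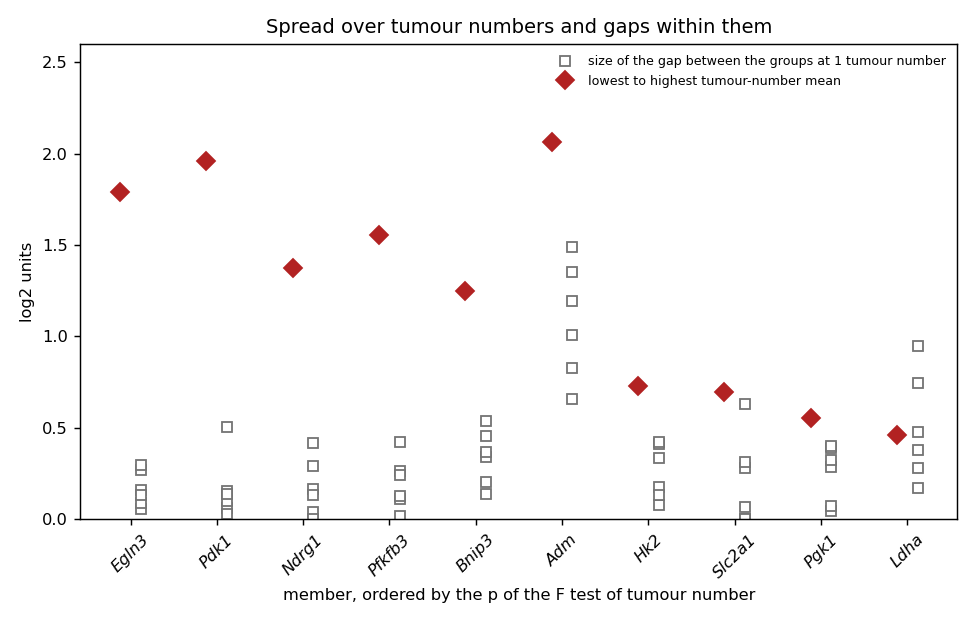
For each member, the distance from its lowest to its highest tumour-number mean (filled diamonds) and the size of the gap between its YFP+ and YFP- arrays at each of the 6 tumour numbers (open squares), both in log2 units on the vertical axis, with members ordered by the p of the F test. The diamond lies above all 6 squares in 9 members and below 3 of them in Ldha.

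Seen over the whole set, number 6 was the highest in both groups for 4 members, number 3 for 2 members, and numbers 1, 2, 4 and 5 for 0. Of those highest at number 3, Hk2 was nearly equal at numbers 2, 3 and 4 in YFP+. Number 4 was among the 2 lowest in both groups for 5 members, number 5 for 4, number 1 for 3 and number 6 for 2, while numbers 2 and 3 were among the 2 lowest in both for 0. The 2 members low at number 6 were Slc2a1 and Hk2. These counts were not set beside their shares over all genes, and the 2 arrays of numbers 4, 5 and 6 shared a slide. Markers of acinar cells, the enzyme-secreting cells of the pancreas, are given by number beside these values. Their summed level, with the 75th percentile of an array as 1, was 10.9, 6.11, 2.66, 9.89, 14.2 and 5.80 on the YFP+ arrays of numbers 1 to 6. On the YFP- arrays it was 75.1, 6.69, 5.45, 64.3, 30.4 and 16.2 in the same order. None of these markers passed the F test of tumour number after adjustment. At an unadjusted p under 0.05 it passed 5 of 7 acinar markers, 2 of 5 red cell genes, 2 of 9 epithelial, 2 of 9 fibroblast, 1 of 6 neutrophil and 1 of 4 T and NK cell markers, and 0 of 8 macrophage, 0 of 7 endothelial and 0 of 4 B and plasma cell markers, beside 7.31% of all genes tested. The part of these cells in the members' spread was not tested.

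The other genes of these pathways were taken by function: 82 listed, 75 of them tested and the other 7 not well above background on enough arrays. Of the 75, 0 were called higher and 1 was called lower in YFP+ (1.33%, beside 1.75% of all genes tested), and 10.7% had an unadjusted p under 0.05 (11.2% of all genes tested).
Of 18 further glycolytic enzymes 0 were called, and their median difference was 0.06 beside -0.03 over all genes. Gapdh, which oxidises glyceraldehyde 3-phosphate, had means of 5.94 ± 0.34 over the 6 YFP+ and 6.11 ± 0.34 over the 6 YFP- arrays (± SD), and Aldoa, an aldolase, 4.89 ± 0.18 and 4.93 ± 0.18. The smallest p was that of the mutase gene Pgam2, with a difference of 0.74 (SE 0.25, adjusted p = 0.22, limma). It was followed by the mutase gene Pgam1 at -0.30, Ldhb, the other lactate dehydrogenase subunit, at 0.40 and the aldolase gene Aldoc at 0.73. With median centring Pgam2 alone of these lists passed, at 0.94 (adjusted p = 0.046).
Of 10 tested genes of glucose and lactate transport and of pyruvate control 0 were called (median -0.01). Slc2a6, a glucose transporter of the lysosome in macrophages, ranged from 0.48 to 1.68 in YFP+ and from -0.86 to 0.94 in YFP-, with the YFP+ array the higher at 6 of 6 numbers and the groups overlapping through number 5. Its difference was 1.01 (SE 0.31, adjusted p = 0.16, limma). Without the YFP- array of number 5 it passed, at 1.23 (adjusted p = 0.040), and without both arrays of number 5 at 1.06 (adjusted p = 0.048). The lactate exporter gene Slc16a3 differed by 0.33, Pdk3 by 1.08 and Pfkfb4 by -0.21, all with adjusted p-values of 0.59 to 0.74. Slc2a3, Slc16a1, Pfkfb1, Pfkfb2 and Pdk4 were on the array and did not pass the filter.

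The HIF system itself showed 0 called of 7 tested (median 0.06). Hif1a, the oxygen-regulated subunit of HIF-1, had means of 2.01 ± 0.33 over the 6 YFP+ and 1.77 ± 0.28 over the 6 YFP- arrays, a difference of 0.24 (SE 0.21, adjusted p = 0.75, limma). Epas1, the subunit of HIF-2, differed by -0.51 (SE 0.33), its partner gene Arnt by 0.33 (SE 0.23) and Vhl, which tags hydroxylated subunits for destruction, by 0.31 (SE 0.21), with adjusted p-values of 0.64 to 0.68. Hif3a differed by -0.79 (SE 0.55, adjusted p = 0.68). The hydroxylase genes Egln1 and Egln2 differed by 0.04 and 0.06. Hif1an did not pass the filter.

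Of 24 further hypoxia response genes 1 was called, lower in YFP+, and the median difference was -0.17. Insig2, which holds the sterol sensor SCAP in the endoplasmic reticulum, read 0.17, 0.86, 0.81, 0.63, 0.62 and 0.84 on the YFP+ arrays of numbers 1 to 6 and 1.53, 1.42, 1.72, 1.52, 1.66 and 1.81 on the YFP- arrays. Every YFP+ array lay below every YFP- array. The difference was -0.96 (SE 0.17, adjusted p = 0.013, limma). Its other probe gave 0.17 (SE 0.27, adjusted p = 0.90), so the 2 probes of Insig2 disagree in sign, and with the mean of both the difference was -0.39 (adjusted p = 0.471). Insig2 passed under 25 of 35 alternatives. Among those under which it did not was tumour number as a fixed replicate block (adjusted p = 0.058). It also did not pass with median centring (-0.75, adjusted p = 0.083). With array brightness as a covariate, which largely follows group, it was -1.03 (adjusted p = 0.289). Nor did it pass without both arrays of number 3 (adjusted p = 0.055) or of number 5 (0.073), or without slide 3 (0.086).
Angptl4, a lipase inhibitor induced by hypoxia and fasting, was the lower in YFP+ at 6 of 6 numbers, with levels of -0.27 to 1.41 against 0.99 to 2.46. Its difference of -1.23 (SE 0.35, adjusted p = 0.13, limma) passed only where slide was a term (adjusted p = 0.0058 with slide as a fixed block). Mxi1, a Myc antagonist, differed by 2.30 (SE 0.88, adjusted p = 0.31) and was well above background on 3 of 6 YFP- arrays, and Vldlr, a lipoprotein receptor, by -0.89 (SE 0.35, adjusted p = 0.32). The vessel growth factor gene Vegfa had means of 3.51 ± 0.44 over the 6 YFP+ and 3.78 ± 0.57 over the 6 YFP- arrays, with the YFP+ array the higher at 1 of 6 numbers and an adjusted p of 0.82.
Over the tumour numbers, 4 of the 24 had an unadjusted p under 0.05 in the F test, among them Vegfa (0.048), Ero1a (0.041) and Stc2 (0.009), named after their values were seen. Over all 75 genes of these lists that share was 9.33%, beside 7.31% of all genes tested. Of 16 TCA cycle enzymes 0 were called (median 0.08). The smallest p was that of Idh3b, a subunit of isocitrate dehydrogenase, with 1.33 to 1.86 in YFP+ above 0.53 to 1.31 in YFP- and a difference of 0.63 (SE 0.19, adjusted p = 0.16, limma). After it came Sdhc, a subunit of succinate dehydrogenase, at 0.58 (SE 0.20, adjusted p = 0.25), Dlst at 0.30 and Suclg2 at -1.06.

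**Figure D4:**
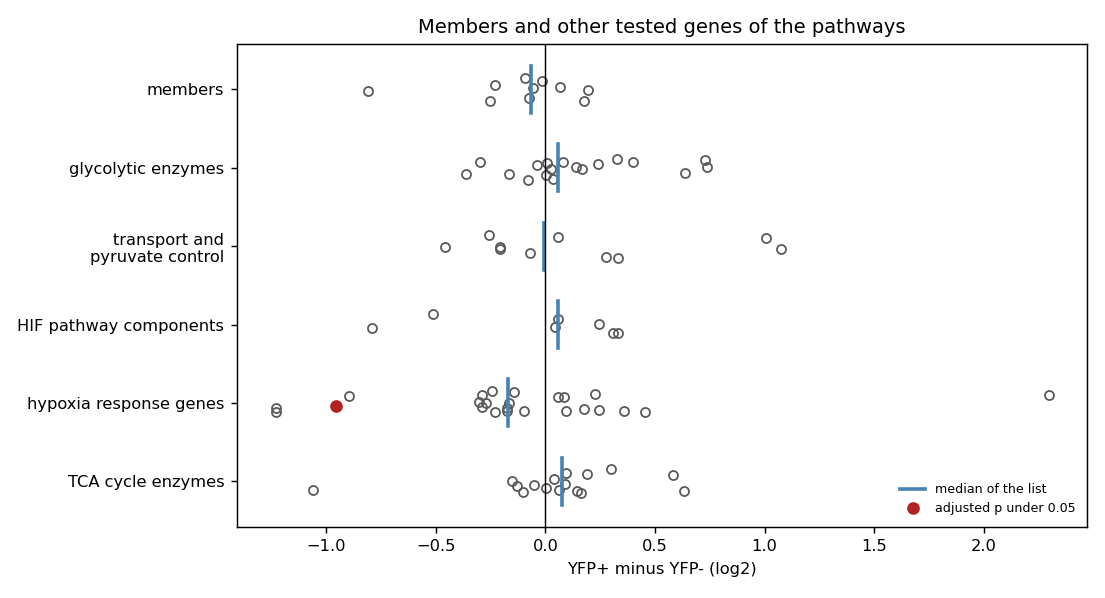
Differences between YFP+ and YFP- macrophages (log2, horizontal axis) of the 10 members and of the tested genes of 5 pathway lists, with an open circle a gene, a filled circle for an adjusted p under 0.05 and a bar for the median of the list. The filled circle is Insig2 at -0.96, and the medians lie between -0.17 and 0.08.

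All 8 macrophage markers were measured, with a summed level of 112 to 198 in YFP+ and 125 to 237 in YFP-, and 0 were called (median difference -0.13). Among markers of other cells, those called were all lower in YFP+: 4 of 9 epithelial markers were called (median -1.79; summed level 5.0 to 11.4 against 15.4 to 41.8), 5 of 9 fibroblast markers (median -1.74; 12.9 to 33.6 against 48.4 to 129) and 3 of 5 red cell genes (median -2.20; 3.82 to 27.1 against 28.5 to 92.5). Of 7 acinar markers 1 was called (median -1.59). Of the neutrophil (6 tested, median -1.63), endothelial (7, median -0.10), T and NK cell (4, median 0.47) and B and plasma cell (4, median 1.57) markers 0 were called. The epithelial keratin gene Krt8 differed by -2.59, the collagen gene Col1a1 by -1.69 and the globin gene Hba-a1 by -1.99. Ngp, Elane, Cd3g, Cd8a, Klrb1c and Ms4a1 were among the markers that did not pass the filter on dim probes. The part of RNA from such cells in the members' levels was not tested.

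**Figure D5:**
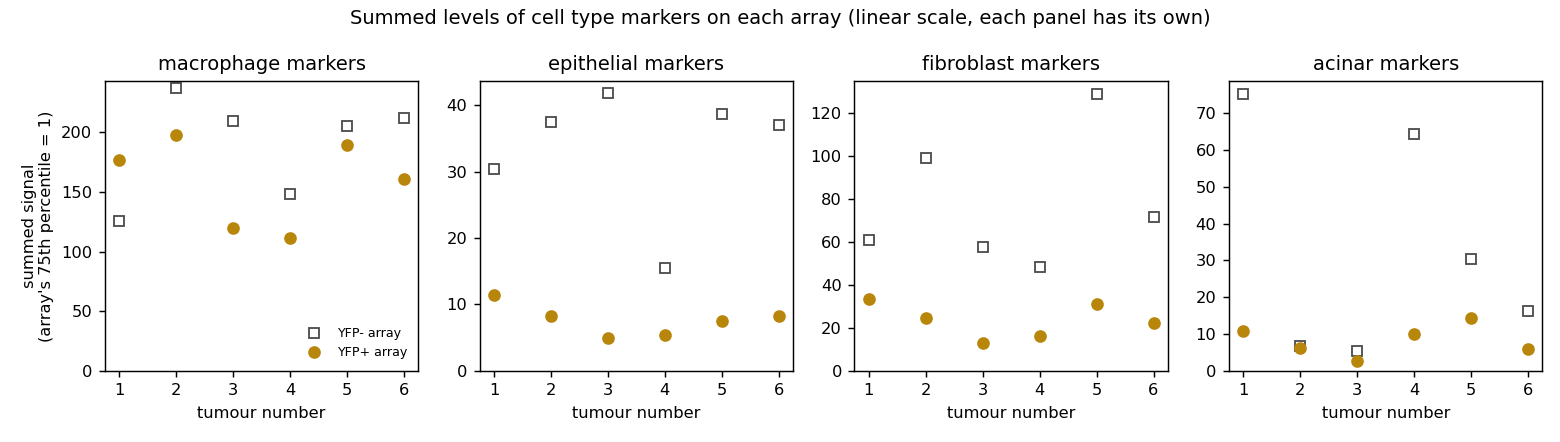
Summed level of the markers of 4 cell types (linear scale, 75th percentile of the array as 1, vertical axes) on the 12 arrays by tumour number (horizontal axes), with filled circles for YFP+ and open squares for YFP- arrays. Epithelial and fibroblast sums of the groups do not overlap, macrophage sums do, and acinar sums were 5.45 to 75.1 in YFP- and 2.66 to 14.2 in YFP+.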

How the data were processed

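The 12 samples are macrophages sorted from mouse tumours, 6 YFP+ and 6 YFP-, whose total RNA was amplified to cDNA and labelled with Cy5, per the labels' protocols. Per the file headers, the intensity values the authors deposited are the red processed signals of Agilent Feature Extraction 11.5.1.1, with background subtracted and arrays not scaled to each other. A second deposited file is a table whose values place it on a log2 scale: each column has a median of 8.83 and a Spearman correlation of 1.00 with its array, its genes are not centred, and the method that made it is not given in the sources used here. It served as an alternative, with 0 of its columns unused.

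Control spots (1377) and outlier spots were left out, repeated spots averaged, and 35 of 39429 probes without a value on some array dropped. Each array's 75th percentile was subtracted on the log2 scale. A probe was kept if well above background on 6 or more of the 12 arrays (25435 were), and a gene was read by its passing probe of highest mean. Names came from RefSeq for the 28324 probes whose accession was in its gene table. Positions are those of the array annotation (mm9, per the file headers). No genome was used here, so exons and UTRs are not given.

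Groups were compared with limma 3.58.1 (lmFit, eBayes, group as the only factor) in R 4.3.3, with p-values adjusted by the Benjamini-Hochberg method across every gene tested (threshold 0.05); errors are limma's standard errors on the log2 scale, and the scripts were tested on simulated data. Tables and figures were made with matplotlib 3.10.9, scipy 1.17.1, numpy 2.4.6 and pandas 2.3.3 in Python 3.11.15, and statmod 1.5.0 served the random block. The number of arrays limits the precision. The 10 genes and the lists were chosen with earlier results of these data known. Named genes are the 10 members, in each pathway list up to 4 tested genes of smallest p, and defining genes of the cell type lists. Gapdh, Aldoa, Hif1a, Egln1, Egln2, Vegfa, Ero1a and Stc2 were named after their values were seen. Some listed genes are not reported here. Alternatives were tumour number and slide as blocks, other background correction (normexp, offset 50), normalization, centring, filters, probe rules, variance models and weights, array brightness as a covariate, and arrays, tumour numbers or slides left out.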

Additional observations from a re-analysis of the deposited data

How the results depend on the processing

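The count of members called stayed at 0 of 10 under all 35 alternatives, including tumour number as a fixed replicate block and slide as a fixed block. Each tumour number stands for an identifier that 1 YFP+ and 1 YFP- title share, but the labels do not state that it is 1 animal, and the values did not show pairing for every number. Deviations of same-numbered arrays from their group means, over all genes, correlated between -0.30 and 0.37, above 0.1 for 4 of 6 numbers. They ran from 0.19 to 0.37 where both arrays shared a slide and from -0.30 to 0.11 where they did not. Of the YFP+ arrays, 3 of 6 correlated best with their own number. Arrays of different numbers on 1 slide reached as high: YFP+ number 3 and YFP- number 1, both on slide 3, correlated at 0.39. With slide as a fixed block, the correlation limma estimated within tumour numbers was 0.0017. Where both arrays of a number were on 1 slide, sharing a number cannot be told apart from sharing a slide. The replicate block moved the genes called from 68 higher and 288 lower in YFP+ to 50 and 246. Slide as a block gave 123 and 433, and median centring 116 and 230.

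The count over the pathway lists, 1 of 75, was 0 with the fixed replicate block, with the mean of a gene's probes, with array brightness as a covariate, without slide 3 and on each slide alone. It was 2 with slide as a fixed block and 2 with tumour number as a random replicate block beside slide. Leaving out arrays or tumour numbers gave 0 to 2, with 2 without the YFP- array of number 5 and 0 without both arrays of number 3. The count of members that passed the test of tumour number, 6 of 10, was 1 with slide as a term and 4 to 6 with a number left out, while the share over all genes was 7.31%, 7.38% and 4.95% to 13.3%; numbers and slides overlap in part, and the cause was not tested.

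Signs of members that turned were as follows, none of them called. With quantile normalization Pfkfb3 was 0.015, Ldha 0.081 and Bnip3 0.088, and with the authors' deposited values they were 0.016, 0.081 and 0.089. With median centring Pfkfb3 was 0.19, Pdk1 0.15, Bnip3 0.13 and Egln3 0.12; this follows from a shift common to all genes, relative to whose median they were 0.014, -0.031, -0.047 and -0.065. With array weights Pfkfb3 was 0.011 and Pdk1 0.071. With array brightness as a covariate Pfkfb3 was 0.067, Ldha 0.48, Pdk1 0.19, Bnip3 0.49 and Egln3 0.47. Brightness largely follows group, so that fit separates the 2 poorly. Without slide 3 Ndrg1 was -0.22. On slide 1 alone Pdk1 was 0.078, Ndrg1 -0.16 and Egln3 0.0074, on slide 2 alone Hk2 was -0.18 and Ndrg1 -0.29, and on slide 3 alone Pfkfb3 was 0.41, Pgk1 0.064, Bnip3 0.26 and Egln3 0.51. With 1 array or 1 tumour number left out, Slc2a1 ran from 0.09 to 0.26, Hk2 from 0.09 to 0.27, Pfkfb3 from -0.17 to 0.18, Ldha from -0.45 to -0.11, Pgk1 from -0.30 to -0.15, Pdk1 from -0.26 to 0.15, Bnip3 from -0.23 to 0.10, Ndrg1 from -0.13 to 0.19, Adm from -1.23 to -0.58 and Egln3 from -0.29 to 0.070. Dim signal limits the third Bnip3 probe, well above background on 9 of 12 arrays. The level of Adm lay below the 75th percentile on all 12 arrays, but its probe was well above background on all 12.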
